A study of Mus musculus with 6 samples.

Results

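The 54 genes described here encode transcription factors that give spinal neurons their lineage, laminar or birth-order identity. They were chosen by name, and a gene counted as measured where its symbol had a row in the deposited count table. That held for 53 of the 54 among 19,954 genes in all. Mafa had no row and is not analysed here. The data were unique molecular identifier (UMI) counts, each UMI standing for 1 captured RNA molecule, from 18,514 single nuclei of the mouse lumbar cord, of which 6035 were neurons in 38 subtypes named by the authors.

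All mice were wild-type C57BL/6 animals, and all had lost the use of both legs after severe contusion at thoracic level. The TESS mice (3 samples) were put on a treadmill for 30 min under targeted epidural electrical stimulation of the cord, which the series describes together with agonists for 5-HT1a, a serotonin receptor, and D1, a dopamine receptor. The CON mice (3 samples, labelled paralyzed) spent 30 min on the treadmill without stimulation, and the labels leave unclear whether they received the agonists. The labels give no age or sex. They name the lumbar cord as the source, although the text on extraction speaks of the site of the thoracic injury. They do not say whether the 3 samples of a group came from separate animals, so p-values measure the spread between these samples, which may be technical.

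The samples held 735, 1072 and 703 neurons in TESS 1, 2 and 3, against 1194, 1094 and 1237 in CON 1, 2 and 3. Their total counts were 2891177, 2316796 and 1582104 UMIs in TESS and 4003227, 4037976 and 3365530 UMIs in CON, and the median neuron held 1210 to 2130 UMIs, depending on the sample. The batch column of the deposited metadata put TESS 1 with CON 1 and CON 2 in batch 3, while TESS 2, TESS 3 and CON 3 each had a batch number of their own. Among all nuclei, 205 barcodes occurred in more than 1 library. By their transmitter genes, 16 subtypes were grouped as inhibitory, 20 as excitatory and 2 as cholinergic, the last being the motor neurons (MN) and Fxyd6. Fxyd6 also held 238 CPM of glutamatergic and 335 CPM of inhibitory transmitter genes, against 82.7 CPM of cholinergic ones, so its class is uncertain and it is counted apart below. In MN the cholinergic genes Chat and Slc5a7 summed to 489 CPM (counts scaled to a common total of UMIs), against 21.5 CPM in all neurons. Of 3 sensory neuron markers, Prph, which motor neurons are also known to express, had 102 UMIs in MN (389.8 CPM), while Avil had 1 and Scn10a had 0. The cerebrospinal-fluid-contacting neurons (CSF-N) held 6134 CPM of the channel genes Pkd2l1 and Pkd1l2, against 30.2 CPM in all neurons.

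Spinal neurons arise in the embryo from stacked progenitor domains that yield dorsal (dI) and ventral (V0 to V3 and motor neuron) cardinal classes, each marked by a code of homeodomain, LIM, GATA, paired-box and other factors. Many of these codes are switched on as a neuron leaves the cell cycle and are later lost, while other members, such as the Ebf, Meis, Rora and Tshz genes, are also known from mature neurons of particular laminae. A second axis, shared by several cardinal classes, separates early-born neurons marked by Zfhx factors from later-born neurons marked by Nfi and Neurod factors.

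The stretch upstream of the start site is shown for 5 members. Gata3 and Tal1 of the V2b and CSF-N code were both highest in CSF-N. Lmx1b, Tlx3 and Prrxl1 of the dorsal excitatory code ran together across the adult subtypes. Other members that ran together, such as Pax2 and Pax8, are not shown. Each sequence holds the 250 bases before the RefSeq start site on GRCm38.p6, written 5′ to 3′ on the gene's own strand. Capitals mark the letters TTATC in Tal1, the reverse complement of the GATA-type motif GATAA, and the homeodomain-type letters TAAT or their reverse complement ATTA in Tlx3.
Gata3, chr2:9878601-9878850, minus strand: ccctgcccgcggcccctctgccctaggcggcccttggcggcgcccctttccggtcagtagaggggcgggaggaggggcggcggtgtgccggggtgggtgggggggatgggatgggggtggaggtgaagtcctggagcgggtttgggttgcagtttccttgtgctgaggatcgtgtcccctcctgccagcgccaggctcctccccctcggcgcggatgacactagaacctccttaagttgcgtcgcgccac
Tal1, chr4:115056176-115056425, plus strand: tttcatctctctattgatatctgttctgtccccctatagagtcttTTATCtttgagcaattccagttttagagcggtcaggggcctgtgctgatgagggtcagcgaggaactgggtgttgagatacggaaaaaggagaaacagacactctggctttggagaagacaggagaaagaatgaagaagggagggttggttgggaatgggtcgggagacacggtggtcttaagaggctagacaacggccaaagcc
Lmx1b, chr2:33641099-33641348, minus strand: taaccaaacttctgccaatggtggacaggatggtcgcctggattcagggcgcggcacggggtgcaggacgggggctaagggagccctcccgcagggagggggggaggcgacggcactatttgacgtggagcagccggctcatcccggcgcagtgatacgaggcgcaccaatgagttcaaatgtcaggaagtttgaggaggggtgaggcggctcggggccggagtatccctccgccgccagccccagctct
Tlx3, chr11:33203589-33203838, minus strand: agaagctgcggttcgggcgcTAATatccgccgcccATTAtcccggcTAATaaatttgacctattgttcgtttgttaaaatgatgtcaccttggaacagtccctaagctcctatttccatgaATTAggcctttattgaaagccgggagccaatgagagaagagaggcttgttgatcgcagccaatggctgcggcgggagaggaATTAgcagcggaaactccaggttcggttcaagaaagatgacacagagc
Prrxl1, chr14:32599677-32599926, plus strand: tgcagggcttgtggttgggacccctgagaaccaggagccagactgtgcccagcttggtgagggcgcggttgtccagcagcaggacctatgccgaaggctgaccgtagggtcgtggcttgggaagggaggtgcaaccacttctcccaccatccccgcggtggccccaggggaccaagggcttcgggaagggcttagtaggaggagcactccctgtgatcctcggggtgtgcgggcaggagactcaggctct

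The letters GATAA, TAAT and CANNTG, the last a helix-loop-helix type motif, were searched on both strands. Tal1 held 1 match to GATAA, at position -205 from the start. Tlx3 held 5 matches to TAAT, at -230, -215, -204, -129 and -48, and the one at -215 overlaps a match to GATAA at -214. Lmx1b held 1 match to CANNTG at -74, and Gata3 and Prrxl1 held none of the 3 motifs. Among 32851 mouse promoter entries of RefSeq, in windows of the same length, 22.6% held GATAA, 54.9% held TAAT and 66.2% held CANNTG. Of the 43 members with a promoter entry, 9, 25 and 25 held them in 1 or more of their entries. These counts are of genes and the shares before them are of single entries, so the measures differ. A match describes letters and not a bound site.

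The number of UMIs limited what could be seen of each member, and why it differed between members was not tested. Of the 53 genes, 21 had fewer than 30 UMIs in all 6035 neurons together, 10 of these had 3 or fewer, and 15 had more than 1000. The low group held most of the factors that define cardinal classes at birth. Counts of different genes are not compared as levels here, because capture differs between transcripts.

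**Figure D1:**
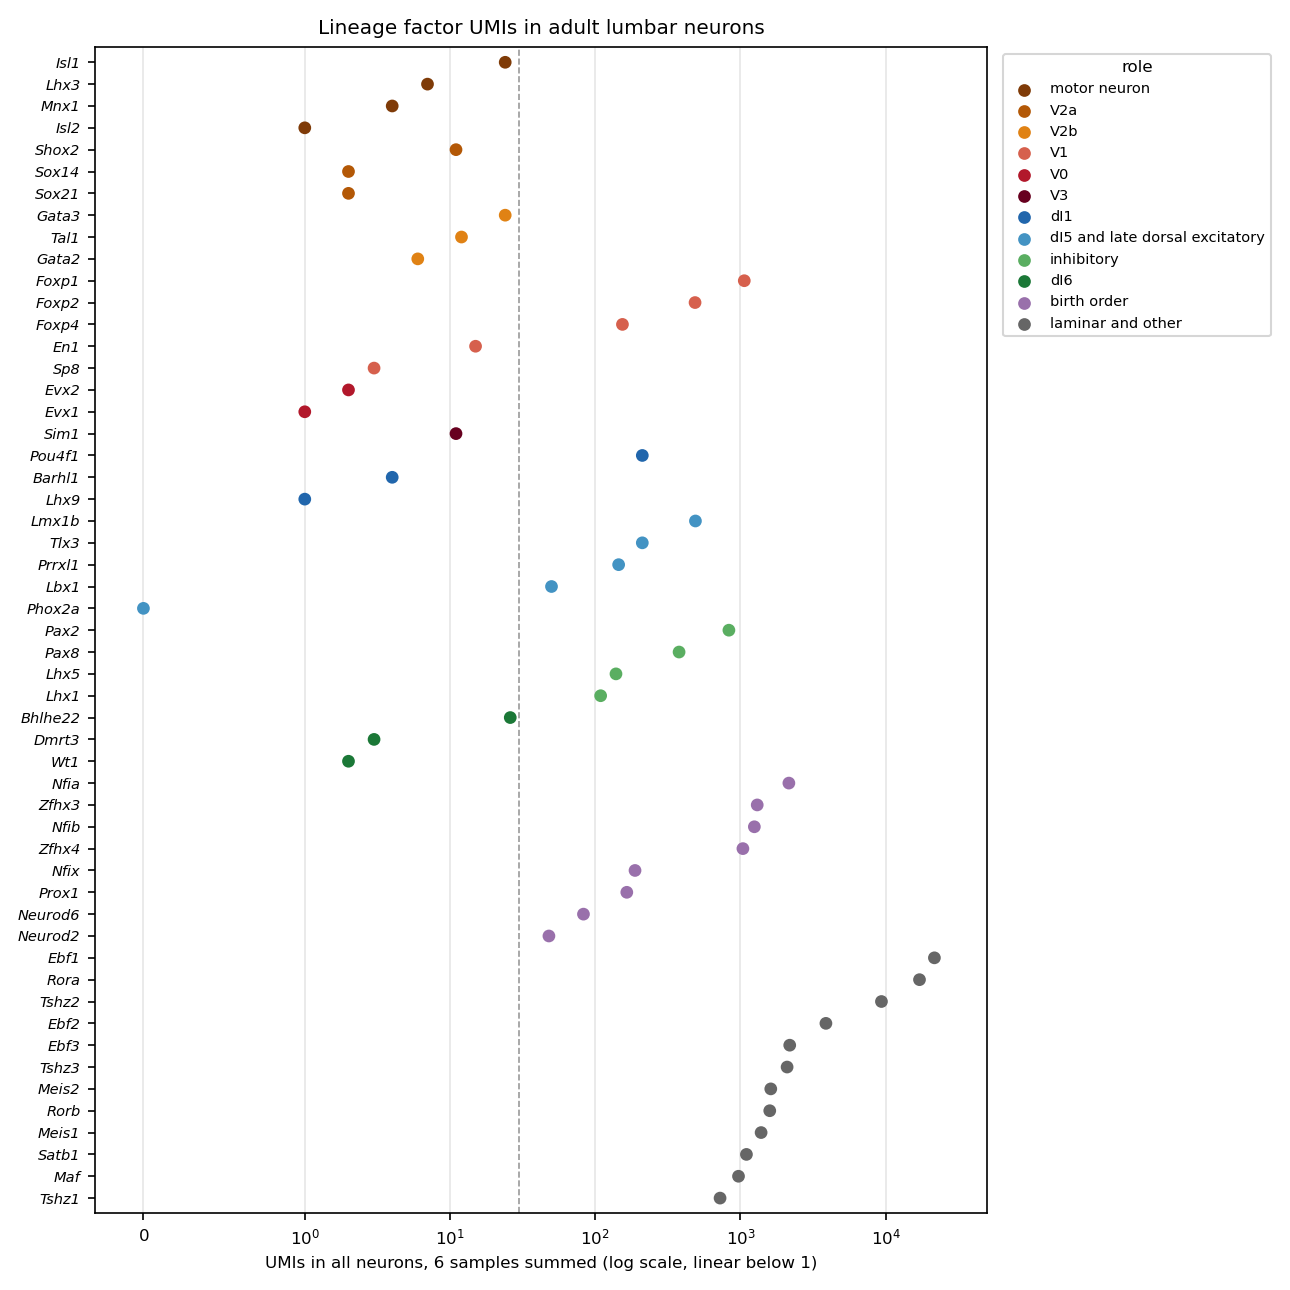
UMIs of each of the 53 members summed over 6035 neurons, by role, on a symmetric log axis, with a dashed line at 30 UMIs. The motor neuron, V2a, V0 and V3 factors lie left of the line, while the 12 laminar factors lie right of it, up to 21666 UMIs for Ebf1.

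The plot of UMIs per member shows that the split runs along some roles and through others. All 4 motor neuron factors (Isl1, Isl2, Mnx1 and Lhx3) had 24 UMIs or fewer, and so did the V2a factors Sox14, Sox21 and Shox2, the V2b factors Gata2, Gata3 and Tal1, the V0 factors Evx1 and Evx2, the V3 factor Sim1 and the dI6 factors Dmrt3 and Wt1. Of the 12 laminar and other factors, Tshz1 had the fewest with 724 UMIs. The V1, dI1 and dorsal excitatory roles were divided. In V1, En1 had 15 UMIs and Foxp1 had 1063. In dI1, Barhl1 had 4 and Pou4f1 had 211. Among the dorsal excitatory factors, Phox2a had 0 and Lmx1b had 490.

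A level is given as CPM over all UMIs of a subtype summed over the 6 samples, with an exact Poisson 95% interval that covers counting error only. Free RNA gives UMIs in nuclei that do not express a gene, so each subtype was set beside the 8837 oligodendrocytes. A member was taken as above the oligodendrocyte level where the lower bound in the subtype exceeded the upper bound in oligodendrocytes and UMIs were present in at least 3 samples. By this rule 32 of 53 members were above it in at least 1 of the 37 subtypes with 30 or more nuclei, and 21 were not. The authors' subtypes were built on the expression of these nuclei, so differences between subtypes are descriptions and carry no test.

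**Figure D2:**
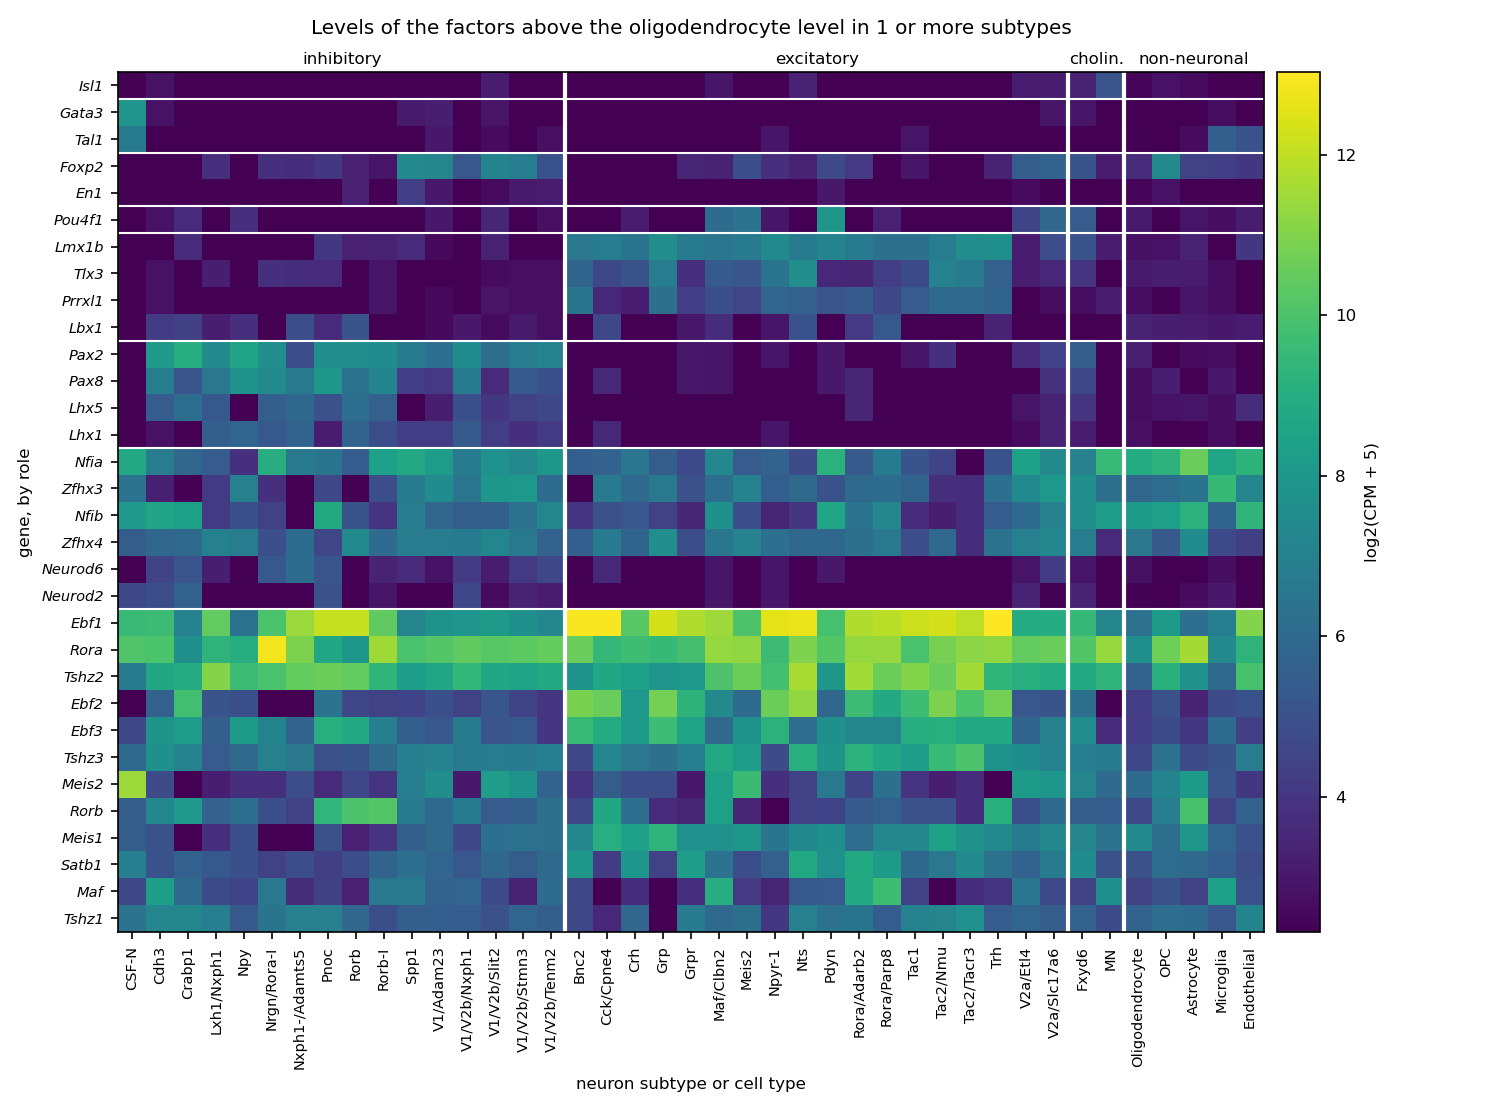
Level of the 32 members above the oligodendrocyte level (rows, by role) in 36 neuron subtypes and 5 non-neuronal cell types (columns, grouped by transmitter class), as log2 of CPM plus 5. Pax2, Pax8, Lhx1 and Lhx5 are seen mainly in the inhibitory block, Tlx3, Lmx1b and Prrxl1 mainly in the excitatory block, and Gata3 and Tal1 are highest in CSF-N and Isl1 in MN.

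Isl1, the LIM factor of the motor neuron lineage, was at the edge of detection in MN. Isl1 had 8 UMIs in the 69 MN nuclei, or 30.6 CPM (13.2 to 60.2), against 1.4 CPM in all other neurons. By sample it read 23.1, 36.7 and 0 CPM in TESS and 38.4, 37.7 and 27.8 CPM in CON, so 5 of 6 samples held it and the groups overlapped. The other LIM and homeodomain factors of the lineage, Isl2, Mnx1 and Lhx3, had no UMI in MN, where 3 counts amount to 11.5 CPM. Lhx4, a LIM factor of the motor neuron and V2a lineage outside the 54 genes, had 14 UMIs in MN (53.5 CPM).

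The V2b code remained in the CSF-contacting neurons, which are known to share the GATA code with V2b neurons. Gata3 had 12 UMIs in the 52 CSF-N nuclei, or 236 CPM (122 to 412), against 1.03 CPM in other neurons. By sample Gata3 read 81.2, 0 and 365 CPM in TESS and 517, 145 and 370 CPM in CON. Gata3 was thus present in 5 of 6 samples, with overlapping groups. It was seen in 17.3% of CSF-N nuclei (median 812 UMIs) and in 0 of 8837 oligodendrocytes (median 433 UMIs), and in 11.6% of CSF-N nuclei thinned to 500 UMIs. Over the 37 subtypes Gata3 and Tal1 correlated at Pearson's r of 0.95 on log2 levels and at Spearman's rho of 0.40, with CSF-N far above the other subtypes for both genes. Tal1, the basic helix-loop-helix partner of the GATA factors, had 5 UMIs in CSF-N (98.3 CPM, 31.9 to 229) against 0.60 CPM in other neurons. Tal1 was also found outside neurons, with 42.2 CPM in microglia and 27.4 CPM in endothelial cells, and Gata2 reached 90.1 CPM in endothelial cells and 2 UMIs in 1 sample in CSF-N.

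Besides CSF-N, Gata3 passed the oligodendrocyte level in V1/Adam23, with 4 UMIs (4.42 CPM, 1.20 to 11.3), where Tal1 had 3 UMIs. The subtypes that carry V2b in their names held few UMIs of this code. In V1/V2b/Slit2 Gata3 had 2. In V1/V2b/Nxph1, V1/V2b/Stmn3 and V1/V2b/Tenm2 Gata3 had none, and 3 counts there amount to 9.74, 5.35 and 5.53 CPM. At this depth a lower level than that was not detectable.

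Among the V1 factors, Foxp2 had enough UMIs to be followed across subtypes. Foxp2, a forkhead factor of V1 inhibitory neurons, passed the oligodendrocyte level in 9 subtypes. It stood at 158 CPM (115 to 211) in Spp1, 140 CPM (117 to 167) in V1/Adam23, 133 CPM in V1/V2b/Slit2 and 110 CPM in V1/V2b/Stmn3, and at 33.3 CPM in all neurons outside V1/Adam23. The other subtypes above were the excitatory V2a/Slc17a6 (47.7 CPM) and V2a/Etl4 (39.9 CPM), V1/V2b/Nxph1 (32.5 CPM), Fxyd6 (29.8 CPM) and V1/V2b/Tenm2 (27.6 CPM). The Poisson intervals of Spp1 and V1/Adam23 overlap, so their order is not resolved. By sample Foxp2 in V1/Adam23 read 103, 239 and 172 CPM in TESS and 58.7, 138 and 161 CPM in CON, with overlapping groups. In V1/Adam23, 24.6% of nuclei held a Foxp2 UMI, against 0.362% of oligodendrocytes, and 7.4% against 0.378% with each nucleus thinned to 500 UMIs. Foxp2 was also high in oligodendrocyte precursors (OPC), at 161 CPM.

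En1, the homeodomain factor that defines the V1 class, was above the oligodendrocyte level in Spp1 only, with 4 UMIs (14 CPM, 3.82 to 35.9), and its other counts among the V1-named subtypes were 3 UMIs in V1/Adam23, 2 each in V1/V2b/Stmn3 and V1/V2b/Tenm2 and 1 in V1/V2b/Slit2. Spp1 is also where the nuclear receptor gene Esrrg, outside the 54 genes, was read at 1705 CPM. Foxp1 and Foxp4, the related forkhead factors, passed the oligodendrocyte level in no subtype. For Foxp1 the oligodendrocyte level was itself 172 CPM, and endothelial cells reached 592 CPM. Sp8, the zinc finger factor of a V1 subset, had 3 UMIs in all neurons.

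The V2a factors were nearly at 0 in the subtypes named V2a. The SoxB factor Sox14 and the homeodomain factor Shox2 had 1 UMI each in V2a/Etl4 and 1 each in V2a/Slc17a6, and Lhx3 and Sox21 had none, where 3 counts amount to 3.86 and 3.98 CPM. Sox21 was instead found in astrocytes, at 19.3 CPM from 15 UMIs. Evx1 and Evx2 of V0, Sim1 of V3, Lhx9 and Barhl1 of dI1, Phox2a of the dorsal projection neurons and Dmrt3, Wt1 and Bhlhe22 of dI6 passed the oligodendrocyte level in no subtype. Phox2a had no UMI in any neuron, which allows up to 0.256 CPM.

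The dorsal excitatory factors Tlx3, Lmx1b and Prrxl1 were found almost entirely in excitatory subtypes. Tlx3, the homeobox selector of glutamatergic dorsal neurons, was above the oligodendrocyte level in 11 subtypes, all excitatory. It was highest in Nts at 188 CPM (130 to 263), followed by 129 CPM in Tac2/Nmu and 111 CPM in Grp, against 15.3 CPM in neurons outside Nts. By sample Tlx3 in Nts read 118, 135 and 300 CPM in TESS and 243, 211 and 127 CPM in CON, so the groups overlapped.

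Lmx1b, a LIM factor needed for dorsal excitatory neurons, was above the oligodendrocyte level in 19 subtypes, of which 18 were excitatory and 1 was Fxyd6. Its highest subtypes were Trh at 196 CPM (137 to 272), Grp at 191 CPM and Tac2/Tacr3 at 184 CPM, with 39.3 CPM in neurons outside Trh. These 3 levels lie within the Trh interval. By sample Lmx1b in Trh read 151, 193 and 457 CPM in TESS and 126, 171 and 236 CPM in CON, again with overlap. A Lmx1b UMI was seen in 23.3% of Trh nuclei (median 1301 UMIs) and in 0.102% of oligodendrocytes, or 10.0% and 0.106% when thinned.

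Prrxl1, a paired-type factor of the same dorsal cells and of sensory neurons, was above the oligodendrocyte level in 15 subtypes, all excitatory. It read 80.8 CPM (34.9 to 159) in Bnc2, against 11.8 CPM in neurons outside Bnc2. Over the 37 subtypes the log2 levels of Tlx3, Lmx1b and Prrxl1 ran together, with Pearson's r of 0.82 for Tlx3 with Lmx1b, 0.83 for Tlx3 with Prrxl1 and 0.88 for Lmx1b with Prrxl1. The subtypes come from the same 6 libraries and share their depth. Of their upstream stretches printed above, Tlx3 alone held TAAT.

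Lbx1, the homeobox factor that sets apart the later dorsal classes in the embryo, did not follow them, with r between -0.11 and -0.05. It had 50 UMIs, and passed the oligodendrocyte level in Rora/Parp8 (34.1 CPM), Nts (27.7 CPM) and the inhibitory Rorb (28.9 CPM). Pou4f1, a POU factor of dI1 and other dorsal excitatory neurons, was led by Pdyn with 251 CPM (197 to 316), against 12 CPM in other neurons. By sample Pou4f1 in Pdyn read 173, 332 and 299 CPM in TESS and 147, 200 and 416 CPM in CON. All 6 samples were above the level of other neurons and the groups overlapped. A Pou4f1 UMI was held by 41.1% of Pdyn nuclei and 0.181% of oligodendrocytes, or 12.8% and 0.182% when thinned. Meis2 and Maf/Clbn2, the next subtypes, read 79.6 and 64.4 CPM of Pou4f1.

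The factors of inhibitory neurons had the opposite pattern. Pax2, the paired-box factor of spinal GABAergic neurons, passed the oligodendrocyte level in 16 subtypes, of which 14 were inhibitory, 1 was excitatory and 1 was Fxyd6. It was highest in Crabp1 at 508 CPM (394 to 645), then Npy at 378 CPM and Cdh3 at 267 CPM, against 66.1 CPM in neurons outside Crabp1. By sample Pax2 in Crabp1 read 342, 817 and 711 CPM in TESS and 466, 507 and 570 CPM in CON, with overlap. A Pax2 UMI was seen in 68.2% of Crabp1 nuclei (median 1740 UMIs) and 0.215% of oligodendrocytes, and with every nucleus thinned to 500 UMIs these shares were 26.5% and 0.251%. CSF-N, inhibitory by their transmitter genes, held no Pax2 UMI, where 3 counts amount to 59.0 CPM.

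Pax8, its close relative, was above the oligodendrocyte level in 15 subtypes, 13 of them inhibitory. It read 252 CPM (195 to 320) in Pnoc, 223 CPM in Npy and 169 CPM in Nrgn/Rora-I, against 27.2 CPM in neurons outside Pnoc. By sample Pax8 in Pnoc read 313, 343 and 316 CPM in TESS and 275, 222 and 167 CPM in CON. All 3 TESS samples were above all 3 CON samples, as in 14.4% of the genes tested in Pnoc, but Pax8 did not pass the test in Pnoc (log2 fold change 0.50 ± 0.43, adjusted p = 0.841 with edgeR). Lhx1 and Lhx5, LIM factors that maintain the inhibitory state, passed the oligodendrocyte level in 11 and 13 subtypes, 11 and 12 of them inhibitory. Their highest subtypes rested on few counts, 6 UMIs of Lhx1 in Npy and 9 of Lhx5 in Crabp1. Over 37 subtypes r was 0.88 for Pax2 with Pax8, 0.81 for Pax8 with Lhx5 and 0.63 for Lhx1 with Lhx5.

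**Figure D3:**
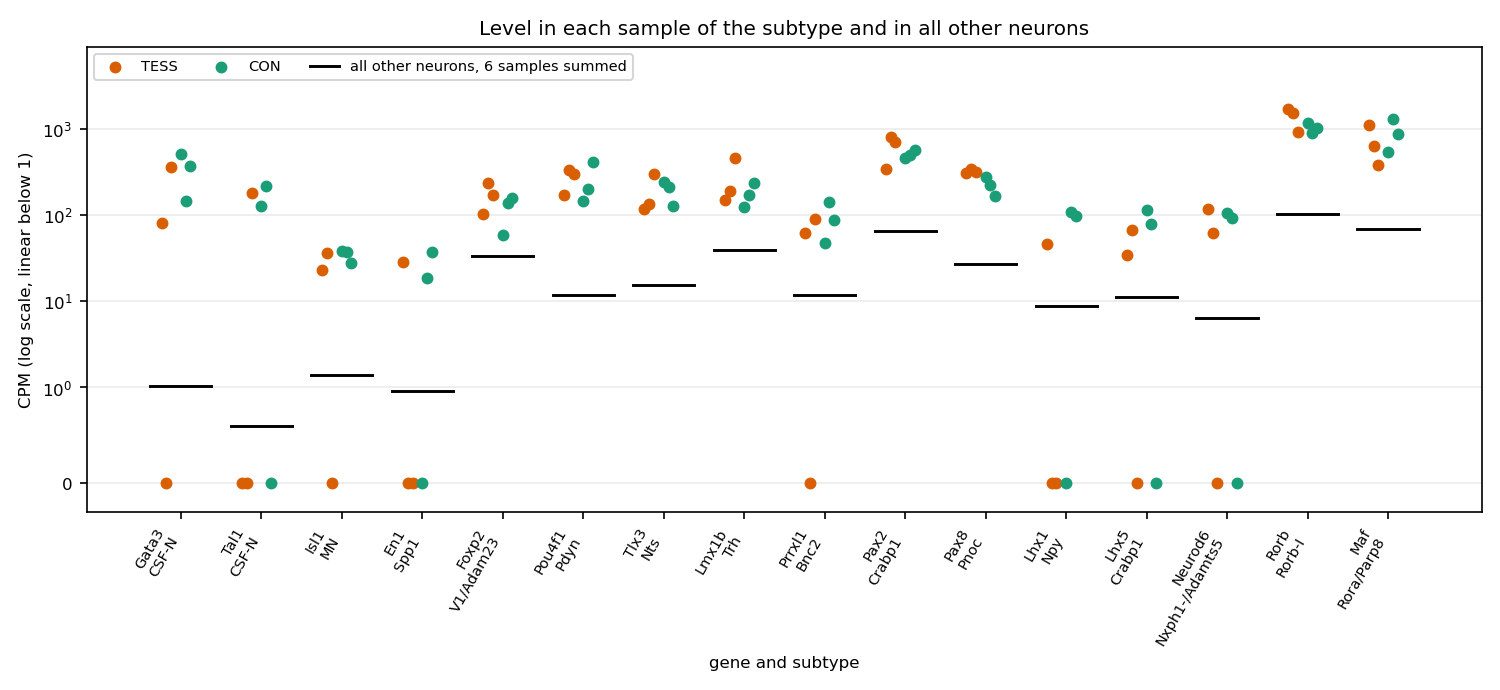
CPM of 16 members, each in 1 of its highest subtypes, for the 3 TESS samples (left) and the 3 CON samples (right) of each panel, with a black line at the level of all other neurons summed. Most points lie above the line in both groups, and the points at 0 belong to factors that rest on few UMIs, such as En1 in Spp1 and Tal1 in CSF-N.

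The plot of class factors by sample shows that the subtype in which each was found did not rest on 1 library for the factors with many counts. Summed over transmitter classes, the same split appeared in each sample. Pax2 read 127, 152 and 115 CPM in TESS and 159, 140 and 144 CPM in CON in inhibitory neurons, against 11.0, 4.21 and 2.42 CPM in TESS and 9.72, 1.60 and 1.93 CPM in CON in excitatory neurons. Over all samples that was 142 against 5.12 CPM, 27.8 times as much in inhibitory neurons. Pax8 (64.3 against 2.28 CPM), Lhx1 (18.1 against 1.33 CPM) and Lhx5 (22.7 against 1.33 CPM) were likewise higher in inhibitory than excitatory neurons in 6 of 6 samples.

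Lmx1b read 2.35, 1.33 and 0 CPM in TESS and 4.05, 2.56 and 3.08 CPM in CON in inhibitory neurons, against 95.1, 85.6 and 99.3 CPM in TESS and 74.2, 78.5 and 97.4 CPM in CON in excitatory neurons. Every excitatory value was above every inhibitory one. Tlx3 (1.83 against 36.6 CPM), Prrxl1 (1.28 against 25.8 CPM) and Pou4f1 (2.2 against 32.5 CPM) were lower in inhibitory than excitatory neurons in 6 of 6 samples. Lbx1, whose embryonic domains give rise to both classes, read 4.95 CPM in inhibitory and 4.37 CPM in excitatory neurons. Oligodendrocytes held 5.04 CPM of Lbx1, so neither sum lay above them.

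Of the birth-order factors, Zfhx3, Zfhx4 and Nfib led in subtypes of both transmitter classes, while the Neurod factors were higher in inhibitory neurons. Zfhx3, a zinc finger homeodomain factor of early-born neurons, was highest in V2a/Slc17a6 at 256 CPM (221 to 295), V1/V2b/Stmn3 at 255 CPM and V1/V2b/Slit2 at 253 CPM, subtypes named for ventral classes and not resolved in order, against 101 CPM in neurons outside V2a/Slc17a6. By sample Zfhx3 in V2a/Slc17a6 read 324, 298 and 195 CPM in TESS and 244, 249 and 194 CPM in CON. The groups overlapped there, and all 6 values were above the level of the other neurons. Zfhx3 was higher still in microglia, at 714 CPM, and its locus overlaps Gm20686, so that reads of the pair may be mixed. Zfhx4, its relative, led in the excitatory Grp at 183 CPM.

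Among the factors of later-born neurons, Nfib led in the subtypes Pnoc (446 CPM), Pdyn (384 CPM) and Cdh3 (379 CPM). Oligodendrocytes held 279 CPM of Nfib, against 106 CPM in all neurons together. Neurod2 led in Crabp1 (45.5 CPM), Pnoc (26.7 CPM) and Cdh3 (25.1 CPM). Its levels correlated with those of Nfib at r of 0.54 over 37 subtypes, the highest r among the birth-order pairs. Other pairs of later-born factors were lower, with 0.19 for Nfib with Neurod6 and 0.20 for Nfia with Neurod2. Zfhx3, of early-born neurons, stood at 0.28 with Nfia and 0.225 with Nfib. Neurod6 led in Nxph1-/Adamts5 at 64.6 CPM, with 117, 62.2 and 0 CPM in TESS and 105, 93.3 and 0 CPM in CON. Each group had 1 sample without a Neurod6 UMI. Both Neurod factors were higher in inhibitory than excitatory neurons in 6 of 6 samples, Neurod2 at 6.96 against 1.14 CPM and Neurod6 at 11.7 against 3.23 CPM.

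The remaining birth-order members, Nfia, Nfix and Prox1, were each higher in oligodendrocytes than in all neurons together. Nfia, a gliogenic factor as well, passed the oligodendrocyte level in MN alone, at 768 CPM (666 to 882) against 171 CPM in other neurons, and astrocytes held 1530 CPM. Nfix and Prox1 passed it in no subtype. Oligodendrocytes held 214 CPM of Nfix, against 216 CPM in CSF-N, its highest subtype. They held 208 CPM of Prox1, against 88.3 CPM in Pdyn.

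Several laminar factors were present in nearly every subtype and differed by degree. Ebf1, an early B-cell factor family member, was above the oligodendrocyte level in 35 of 37 subtypes and was highest in Trh (8370 CPM), Cck/Cpne4 (7865 CPM) and Bnc2 (7683 CPM). Its relatives Ebf2 and Ebf3 led in Nts (2485 CPM) and Grp (819 CPM), and Ebf2 was on the excitatory side, at 46.0 CPM in inhibitory and 678 CPM in excitatory neurons. The 3 Ebf genes correlated over 37 subtypes at r of 0.67 (Ebf1 with Ebf2), 0.63 (Ebf1 with Ebf3) and 0.70 (Ebf2 with Ebf3).

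Meis2, a TALE homeobox factor, had a sharper pattern. It read 2792 CPM (2352 to 3291) in CSF-N, 777 CPM in the Meis2 subtype and 347 CPM in Maf/Clbn2, against 126 CPM in neurons outside CSF-N. By sample Meis2 in CSF-N read 3734, 2887 and 2190 CPM in TESS and 1423, 3199 and 2342 CPM in CON. All 6 values lay far above the other neurons, and the groups overlapped. A Meis2 UMI was held by 80.8% of CSF-N nuclei and 2.92% of oligodendrocytes, or 69.9% and 1.88% when thinned. Meis1, its relative, led in Grp (620 CPM) and Cck/Cpne4 (530 CPM).

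Maf, a leucine zipper factor of deep dorsal horn neurons, read 829 CPM (709 to 963) in Rora/Parp8, 501 CPM in Maf/Clbn2 and 468 CPM in Rora/Adarb2, against 69.4 CPM in neurons outside Rora/Parp8, and 203 CPM in MN. Rora, a nuclear receptor, was above the oligodendrocyte level in 35 subtypes and led in Nrgn/Rora-I at 7428 CPM, against 1398 CPM in other neurons, while astrocytes held 3046 CPM. Its relative Rorb led in Rorb-I at 1147 CPM, Rorb at 1046 CPM and Pnoc at 648 CPM. By sample Rorb in Rorb-I read 1702, 1527 and 938 CPM in TESS and 1174, 898 and 1030 CPM in CON, with overlap. Several of these subtypes take their name from the factor, so its level there is no finding.

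Satb1, a chromatin organiser, led in Rora/Adarb2 (456 CPM) and Nts (448 CPM). The teashirt zinc finger factors Tshz1, Tshz2 and Tshz3 were above the oligodendrocyte level in 11, 36 and 30 subtypes. Their highest subtypes were all excitatory: Tac2/Tacr3 for Tshz1 at 209 CPM, Nts for Tshz2 at 3144 CPM and Tac2/Tacr3 for Tshz3 at 1020 CPM. Tshz3 in Tac2/Tacr3 read 1222, 1410 and 1240 CPM in TESS and 447, 1185 and 754 CPM in CON. That subtype had too few nuclei per sample to be tested, and the share of all genes whose groups do not overlap there was not counted. The next subtypes for Tshz3 were Tac2/Nmu at 755 CPM and Rora/Adarb2 at 577 CPM.

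Counted by subtype, Pnoc and Nts held the most members that stood out from the other neurons. A member was counted where it was above the oligodendrocyte level and at 2 or more times its level in the other neurons. Pnoc held 11 such members and Nts held 10. At the other end, by the same count, V2a/Etl4 had Meis2 alone and V1/V2b/Tenm2 had Neurod6 alone. Without the condition on other neurons the order differed. V2a/Etl4 then held 14 members above the oligodendrocyte level and V1/V2b/Tenm2 held 13, beside 13 in Pnoc and 12 in Nts. Fxyd6 and V2a/Slc17a6 held the most, with 16 each. The highest subtype of a member stayed the highest for 26 of the 32 members when the 6 samples were given equal weight, for 32 when only nuclei with at least 500 UMIs were used, for 21 in the TESS samples alone and for 26 in the CON samples alone.

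TESS was then compared with CON, with counts summed per sample over all neurons and tested with edgeR's quasi-likelihood test and Benjamini-Hochberg adjustment over all genes tested. Of 53 members, 30 passed the filter on low counts. Tshz3 and Zfhx3 rose in TESS and no member fell. That was 2 of 30 members, beside 1.04% of the 11,686 genes tested (32 that rose and 90 that fell). The median log2 fold change was 0.045 over the 30 members and -0.0051 over all genes tested, and 16 of the 30 were positive. In these sums taken alone, a change in how many cells of a type were captured cannot be told apart from a change of RNA per cell, so values with equal numbers of nuclei per subtype are given as well. CPM in these comparisons are normalised to the genes tested, so they differ from the levels given above and are not comparable between cell classes.

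Tshz3, a teashirt-family zinc finger factor at chr7:36698118-36773553 on the plus strand (GENCODE vM21, GRCm38), read 253, 214 and 244 CPM in the neurons of TESS 1, 2 and 3 (237 ± 20.7, SD, n = 3) and 128, 154 and 162 CPM in CON (148 ± 17.7, SD, n = 3). Every TESS sample was above every CON sample. The log2 fold change was 0.68 ± 0.13 (SE) with an adjusted p of 0.0150 in edgeR's quasi-likelihood test. Inside batch 3 the log2 fold change was 0.84 with an adjusted p of 0.758 from 1 TESS and 2 CON samples, where 0 genes were called by edgeR and 843 had an unadjusted p under 0.05. Without TESS 1 the adjusted p was 0.0512 and without TESS 3 it was 0.0728.

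Zfhx3, at chr8:107942644-108961630 on the plus strand, read 139, 147 and 138 CPM in TESS (141 ± 4.74, SD, n = 3) and 91.3, 104 and 89.9 CPM in CON (95 ± 7.6, SD, n = 3). The groups did not overlap. Its log2 fold change was 0.57 ± 0.13 with an adjusted p of 0.0333 in edgeR's quasi-likelihood test, and inside batch 3 it was 0.51 with an adjusted p of 0.758. The call was lost when any 1 of the 6 samples was left out, with adjusted p between 0.0645 and 0.151.

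Of the 30 members, 8 had groups that did not overlap, Tshz3 and Zfhx3 included, as had 19.9% of all genes. Ebf2 read 288, 259 and 283 CPM in TESS and 367, 372 and 372 CPM in CON (log2 fold change -0.42 ± 0.11, adjusted p = 0.0775 in edgeR's quasi-likelihood test). Ebf1 read 1497, 1703 and 1593 CPM in TESS and 1815, 2124 and 2225 CPM in CON (-0.36 ± 0.11, adjusted p = 0.116 in the same edgeR test). Meis2 read 153, 178 and 171 CPM in TESS and 119, 134 and 118 CPM in CON (0.43 ± 0.13, adjusted p = 0.110 in the same edgeR test). None of these 3 passed. Tlx3 did not pass either, at 15.4, 11.6 and 13.0 CPM in TESS and 20.4, 18.2 and 25.5 CPM in CON (-0.66 ± 0.25, adjusted p = 0.216 with edgeR). With nuclei drawn equally per subtype from each sample, the log2 fold changes were -0.019 for Ebf2, -0.011 for Ebf1, -0.087 for Tlx3 and 0.31 for Meis2. In the sums over all neurons, TESS and CON samples were apart for all 4, TESS being lower for Ebf1, Ebf2 and Tlx3 and higher for Meis2. A p that misses the threshold does not show that a member was alike in both groups.

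**Figure D4:**
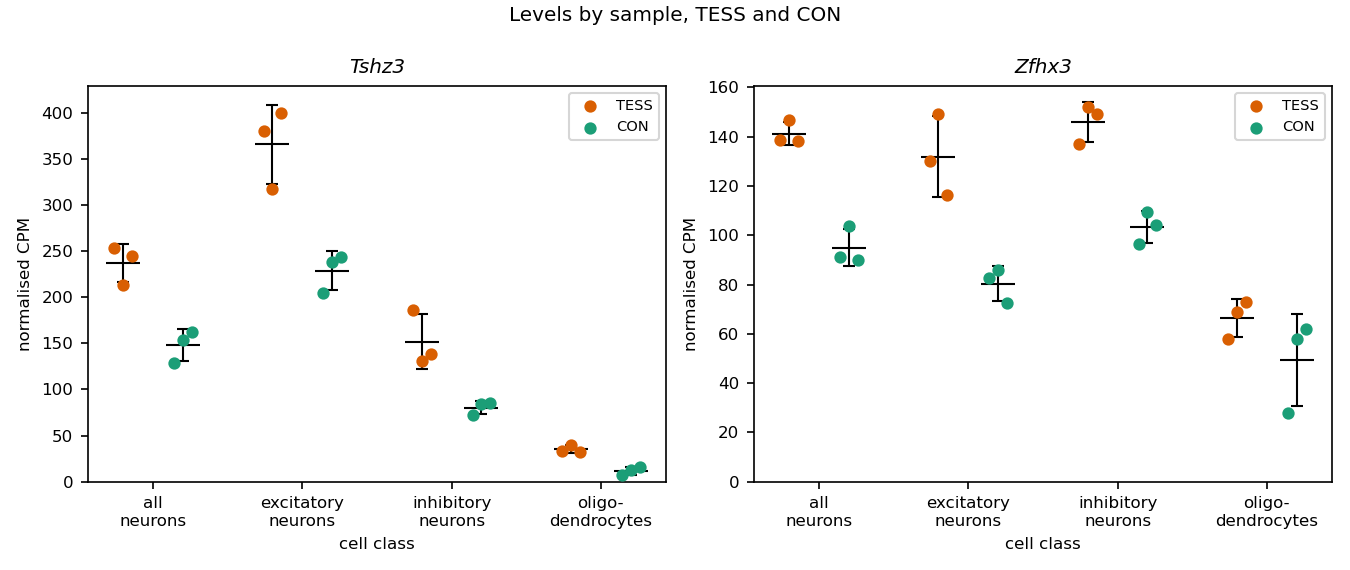
Normalised CPM of Tshz3 and Zfhx3 per sample, with mean ± SD over 3 samples, in all neurons, excitatory neurons, inhibitory neurons and oligodendrocytes, TESS left of CON. For Tshz3 the 3 TESS samples lie above the 3 CON samples in each class, at 253, 214 and 244 CPM against 128, 154 and 162 CPM in all neurons.

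The plot of Tshz3 and Zfhx3 by class shows the split by transmitter. In excitatory neurons 2 of 25 members tested rose and none fell, beside 0.94% of 9464 genes called. Tshz3 read 380, 317 and 400 CPM in TESS and 204, 238 and 244 CPM in CON (0.67 ± 0.14, adjusted p = 0.0111 with edgeR). Zfhx3 read 130, 149 and 116 CPM in TESS and 82.5, 86.0 and 72.3 CPM in CON (0.73 ± 0.17, adjusted p = 0.0275 with edgeR). Neither gene had overlapping groups, as was the case for 9 of 25 members and 18.1% of all genes there. Inside batch 3 the log2 fold change was 0.78 for Tshz3 (adjusted p = 0.0548, edgeR) and 0.62 for Zfhx3 (adjusted p = 0.384, edgeR). Leaving out 1 sample took the call from Tshz3 without TESS 1, TESS 3 or CON 1 (adjusted p of 0.0614, 0.0908 and 0.0589) and from Zfhx3 without any 1 of the 6, at 0.0528 to 0.114, in the same edgeR test.

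In inhibitory neurons 1 of 26 members tested rose, beside 0.292% of 9603 genes called. Tshz3 read 186, 131 and 139 CPM in TESS and 72.3, 83.8 and 85.0 CPM in CON. The log2 fold change was 0.94 ± 0.17 with an adjusted p of 0.0221 in edgeR's quasi-likelihood test, and 1.26 with an adjusted p of 0.00055 inside batch 3. Without TESS 3 the adjusted p was 0.115 and without TESS 1 it was 0.0668. Zfhx3 read 137, 152 and 149 CPM in TESS and 96.3, 109 and 104 CPM in CON (0.50 ± 0.16, adjusted p = 0.169 with edgeR), with no overlap and no call. Of the 26 members 5 did not overlap, beside 17% of all genes.

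The TESS effect was compared between inhibitory and excitatory neurons with the sample as a block. No member differed among 10,359 genes tested, of which 0.0386% were called, while 6 members had an unadjusted p under 0.05 in this edgeR test. Without TESS 2, Ebf1 passed (-0.40, adjusted p = 0.0235 with edgeR). For Tshz3 the inhibitory minus excitatory difference of log2 fold changes was 0.28 ± 0.16 (adjusted p = 0.881, edgeR). For Ebf1 it was -0.23 ± 0.08 (adjusted p = 0.668, edgeR).

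Within single subtypes, 24 of the 38 had at least 10 nuclei in every sample and were tested. Tshz3 passed the filter in 12 of them, was higher in TESS in all 12 and had an unadjusted p under 0.05 in 8. It was called in 1, beside 0.0828% of all gene tests in the 24 subtypes together. That was Maf/Clbn2, where it read 1802, 1105 and 1716 CPM in TESS and 569, 507 and 689 CPM in CON, without overlap, as for 15.6% of genes there. The log2 fold change there was 1.39 ± 0.28 with an adjusted p of 0.0011 in edgeR's quasi-likelihood test, beside 0.381% of 788 genes called. Without TESS 1 the adjusted p was 0.150 in the same edgeR test, which is no call. Inside batch 3 the log2 fold change was 1.66, and with batch as a term it was 1.71. TESS 2, TESS 3 and CON 3 are each alone in a batch. Both fits thus compare TESS 1 with CON 1 and CON 2 and cannot measure the spread between TESS samples.

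Next came V2a/Etl4, with 313, 298 and 442 CPM of Tshz3 in TESS and 110, 73.6 and 193 CPM in CON (1.35 ± 0.31, adjusted p = 0.0922 with edgeR). In V1/Adam23 Tshz3 read 303, 186 and 245 CPM in TESS and 119, 113 and 96.9 CPM in CON (1.12 ± 0.29, adjusted p = 0.271 with edgeR). Neither passed, and in both every TESS sample was above every CON sample, in subtypes where the groups of 12.4% (V2a/Etl4) and 13.4% (V1/Adam23) of all genes did not overlap. The median of the 12 log2 fold changes was 0.81 and the lowest was 0.32, in Tac1. The subtypes share their 6 libraries and are not 12 independent measurements. Zfhx3 passed the filter in 6 subtypes, was higher in TESS in 5, had an unadjusted p under 0.05 in 1 and was called in none, with a median log2 fold change of 0.20.

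**Figure D5:**
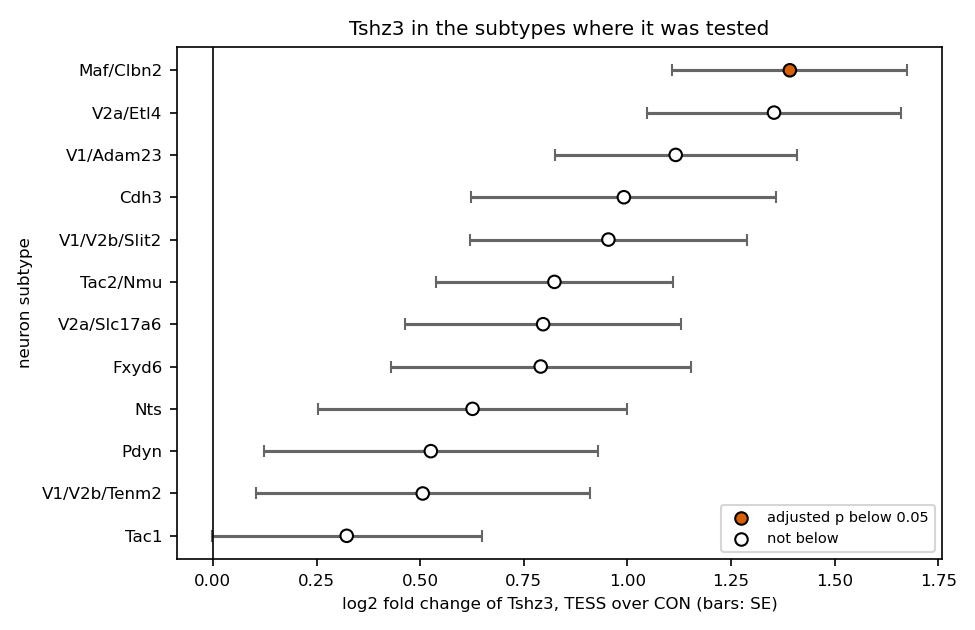
Log2 fold change of Tshz3, TESS over CON, with its SE, in the 12 neuron subtypes where it was tested, ordered by size. All 12 lie above 0, from 0.32 in Tac1 to 1.39 in Maf/Clbn2.

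The plot of Tshz3 by subtype holds inhibitory and excitatory subtypes and Fxyd6. Other members tested in more than 2 subtypes had both directions. Rora was higher in TESS in 17 of 23 subtypes, Ebf1 in 13 of 23, Tshz2 in 12 of 23, Meis2 in 5 of 7 and Pax2 in 2 of 8. Ebf3 was higher in 10 of 12, with an unadjusted edgeR p under 0.05 in 2, and Foxp1 in 5 of 6. Foxp2 and Tshz1 were each higher in 2 of 2. None of these members was called in any subtype. Counted over the 38 subtypes, the share of neurons did not overlap between TESS and CON in 10, each with an exact two-sided permutation p of 0.1, the smallest that 3 against 3 samples can give (adjusted p = 0.38). The share of V2a/Etl4 averaged 4.83% of neurons in TESS and 3.07% in CON, and that of Tac1 3.84% in TESS and 5.34% in CON. When neurons were drawn in equal numbers per subtype from each sample, the log2 fold change of Tshz3 was 0.86 (adjusted p = 0.0045) and that of Zfhx3 was 0.49 (adjusted p = 0.127) in the same edgeR test.

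Outside neurons, 2 of the members tested were called. In oligodendrocytes Tshz3 rose, as 1 of 19 members tested and beside 1.65% of 8796 genes called. It read 32.9, 39.9 and 32.3 CPM in TESS and 6.97, 12.4 and 16.1 CPM in CON (1.55 ± 0.35, adjusted p = 0.0201 with edgeR), with no overlap, as for 6 of 19 members and 19.7% of all genes there. The summed level of 4 neuron markers in oligodendrocytes was 843, 675 and 1194 CPM in TESS and 670, 629 and 915 CPM in CON, against 5913 CPM in all neurons. The glutamatergic markers Slc17a6 and Slc17a8 summed there to 25.9, 23.8 and 48.9 CPM in TESS and 17.2, 15.2 and 17.9 CPM in CON, without overlap, against 167 CPM in all neurons. The GABAergic and glycinergic markers summed there to 99.6, 43.3 and 122 CPM in TESS and 64.2, 68.4 and 115 CPM in CON, with overlap. The cholinergic markers summed to 24.6, 10.8 and 13.6 CPM in TESS and 13.8, 14.3 and 25.0 CPM in CON, also with overlap. The part of any of these lists in the Tshz3 difference was not tested. The call was lost without TESS 2, TESS 3, CON 1 or CON 2, at adjusted p of 0.0775, 0.0967, 0.0889 and 0.0767 in the same edgeR test, and inside batch 3 the adjusted p was 0.167.

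In microglia Rora rose, as 1 of 6 members tested and beside 0.6% of 2501 genes called. It read 322, 386 and 392 CPM in TESS and 116, 128 and 173 CPM in CON (1.38 ± 0.31, adjusted p = 0.0274 with edgeR), with no overlap, as for 2 of 6 members and 17.4% of all genes there. With DESeq2 the adjusted p was 0.0992 and inside batch 3 it was 0.257. The call was lost without TESS 2, TESS 3, CON 1 or CON 2, at adjusted p of 0.0799, 0.149, 0.101 and 0.161 in the same edgeR test. The 5 astrocyte markers summed in microglia to 692, 633 and 696 CPM in TESS and 405, 464 and 565 CPM in CON, groups that do not overlap either. Rora was high in astrocytes, and their part in the microglial difference was not tested. Rora overlaps Gm15511, and the strand of counting is not given in the sources used here.

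No member was called in the remaining cell types. These were OPC (7 members tested, 0.155% of genes called), astrocytes (10 members, 0.976% called) and endothelial cells (6 members, 1.54% called). Of these members, 0, 1 and 1 had an unadjusted p under 0.05 with edgeR, and DESeq2 called 0. Of 60 further lineage factors listed for comparison, 51 were in the table and 22 were tested in all neurons. None was called and 6 had an unadjusted p under 0.05 with edgeR. The smallest p belonged to St18, a zinc finger factor (0.57, adjusted p = 0.108 with edgeR), followed by Sall3 (-0.69, adjusted p = 0.114 with edgeR).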

How the data were processed

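The deposited table holds UMI counts per gene and nucleus, and the deposited metadata give each nucleus its sample, batch number, major cell type and neuron subtype. Per the submitters' processing notes, Cell Ranger 2.2.0 and Seurat 3 were used, with the builds mm10 and GRCm38 named. Filters on nuclei, treatment of doublets, counting of introns and the strand of counting are not given in these sources. The deposited metadata also hold a mitochondrial fraction per nucleus, at most 4.92% in percent. The smallest number of genes per nucleus was 197.

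Counts were summed per sample and cell class. Levels are CPM over all UMIs of a class, and log2 levels used CPM plus 5. Tests used edgeR 4.0.16 in R 4.3.3 (quasi-likelihood, TMM, filterByExpr with a minimum count of 10) on 3 TESS and 3 CON sums, with no term for the batch. Genes counted as called had an adjusted p under 0.05 within their class or subtype. DESeq2 1.42.0, no filter, leave-one-out, the replicate number as a block, the batch, and equal numbers of nuclei were tried as alternatives, and the code was tested on simulated data.

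The labels state no pairing of same-numbered TESS and CON samples. Their deviations from the group means correlated at -0.054, -0.0016 and -0.021, which with 3 samples per group cannot exclude a pairing. A subtype was assigned to the transmitter class whose summed marker level was greatest relative to all neurons. V1/V2b/Slit2 was nearly tied (1.21 inhibitory, 1.08 excitatory), and Fxyd6 was cholinergic by this rule (3.85, against 1.43 excitatory and 0.67 inhibitory). Gene positions came from GENCODE vM21 and upstream sequences from RefSeq on GRCm38.p6. By position, 19 of the 53 members overlap another gene of the table, among them Zfhx3, Pax2, Rora and Gata3, so reads of such pairs may be mixed. The members and lists, and the up to 3 highest subtypes and called members named in the text, were chosen by rule, with earlier results of these data known. A subtype and a further gene are not reported here by name.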

Additional observations from a re-analysis of the deposited data

How the results depend on the processing

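The number of members above the oligodendrocyte level (32) was 33, 32, 29, 27 and 33 with equal weight per sample, with nuclei of at least 500 UMIs, in CON alone, in TESS alone and against all non-neuronal nuclei. The level in the highest subtype moved by no more than the spread between samples in 126 of 128 comparisons, while the number of subtypes above the oligodendrocyte level moved in 34 of 265. The share of nuclei with a UMI moved in 24 of 32 when nuclei were thinned to 500 UMIs.

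Counts of calls depended on the setting more than fold changes did, and the causes were not tested. In all neurons (122 genes, 2 members) the counts were 335 genes and 4 members (Tshz3, Zfhx3, Ebf1 and Ebf2) without the filter, 40 genes and 1 member with equal numbers of nuclei per subtype, and 0 genes and 0 members with batch as a term and inside batch 3, where 765 and 843 genes and 3 and 3 members had an unadjusted p under 0.05. DESeq2 called 109 genes and 3 members. In excitatory neurons (89 genes, 2 members) DESeq2 called 46 genes, no filter 163, batch as a term 20 genes and 1 member, inside batch 3 18 genes and 0 members (6 at an unadjusted p under 0.05), and equal numbers 28 genes and 1 member. In inhibitory neurons (28 genes, 1 member) DESeq2 called 14 genes, no filter 112 genes and 2 members, batch as a term 7 genes, inside batch 3 6 genes and equal numbers 16 genes. Inside batch 3 the lone TESS sample is assumed to vary like the CON samples. With batch as a term the TESS effect rests on the same samples, since TESS 2, TESS 3 and CON 3 are each alone in a batch.

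With 1 sample left out at a time, all neurons gave 19 to 105 genes and 0 to 2 members, excitatory neurons 23 to 68 genes and 0 to 1 members, and inhibitory neurons 1 to 41 genes and 0 to 2 members. Neither Tshz3 nor Zfhx3 was called in all neurons without TESS 1 or without TESS 3, with 10 members at an unadjusted p under 0.05 each time. Member calls in subtypes (1) ranged from 0 to 3 and were 0 without the filter and 2 inside batch 3. Member calls in the other major cell types (2) ranged from 0 to 2 and were 0 with DESeq2, 1 without the filter, 0 with batch as a term and 0 inside batch 3. Members with a different effect in inhibitory and excitatory neurons (0) ranged from 0 to 1. Subtypes whose shares did not overlap (10) ranged from 11 to 21, with 21 without TESS 2 and 18 without CON 2, where fewer samples are left to overlap.

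The replicate number as a block, which the labels do not state as a pairing, gave 169 genes and 2 members in all neurons, 142 genes and 3 members (Meis2 also) in excitatory neurons, 40 genes and 1 member in inhibitory neurons, and 2 member calls in subtypes.

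The log2 fold change of Tshz3 in all neurons lay between 0.58 and 0.86 over 13 alternatives and was called in 9. That of Zfhx3 lay between 0.49 and 0.64 and was called in 4. Signs turned only for members that were not called. With 1 sample left out, Ebf3 ranged from -0.056 (without CON 1) to 0.098, Foxp4 from -0.097 (without CON 2; -0.020 without TESS 1) to 0.36, Rora from -0.010 (without CON 1) to 0.11 and Lmx1b from -0.23 to 0.088 (without CON 3), against 0.05, 0.12, 0.04 and -0.09 with all samples. With batch as a term and inside batch 3, Lmx1b turned to 0.058 and 0.059, Lhx5 to 0.0070 and 0.0079, Prrxl1 to 0.043 and 0.043 and Tshz1 to -0.16 and -0.16. With equal numbers Lmx1b turned to 0.20, Nfix to -0.33, Rorb to 0.074 and Tshz2 to 0.020. With 3 counts at 11.5 CPM in MN and 59.0 CPM in CSF-N, a lower level of a class factor there was not detectable.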
